A study of Mus musculus with 39 samples.

Results

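The cytosolic ribosomal protein genes were described in brain RNA of mice given soman, an organophosphate nerve agent that inhibits acetylcholinesterase, or saline. Members were taken by symbol: all names of the form Rpl or Rps followed by a number, with an optional letter or digit, plus Rplp0, Rplp1, Rplp2 and Rpsa, with names ending in -ps left out. This gave 88 of the 47561 rows of the table, 53 of the large subunit and 35 of the small subunit. Of these, 84 had an FPKM (fragments per kilobase of transcript, scaled to library size) of 1 or more in at least 3 libraries and were tested among 14701 rows. The other 4 were low in every library: Rpl10l was listed at 0 throughout, and Rpl3l, Rpl39l and Rpl32l did not reach 1 FPKM. Fau, which encodes a ribosomal protein joined to a ubiquitin-like protein, falls outside the symbol rule and is counted with the other TOP genes below.

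The ribosome is built from a large and a small subunit, each made of ribosomal RNA and a set of proteins, most of them present in a single copy. Messenger RNAs of ribosomal proteins are among the most abundant of most cells, are short, and begin with a run of pyrimidines, the terminal oligopyrimidine (TOP) motif, through which mTORC1 and Larp1 control their translation. Their genes have left many processed copies in the mouse genome, often almost identical in sequence to the parent messenger RNA. In neurons, ribosomes in dendrites and axons make proteins close to synapses.

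The mice received soman under the skin, and doses are given as the fraction 1/10, 1/5 and 1/2 of the dose lethal to 50% (LD50). Brains were taken 1, 3, 7 or 14 days later, which gives 12 soman groups. A single saline group, whose day the labels do not give, is the only control for all of them, so every comparison with saline rests on the same 3 libraries. Each of the 13 groups has 3 libraries of poly(dT)-selected RNA, 39 in all, and the series describes them as biological replicates. Neither the strain, sex or age of the mice nor the brain region is stated in the labels used here. The tissue label was borne out by marker genes: the 10 neuron markers summed to between 1777 and 1899 FPKM in the saline libraries, and 6 liver and muscle markers to between 3.13 and 3.93 FPKM. The labels do not say whether a library holds 1 animal, so p-values measure the spread between these libraries.

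In these libraries summed FPKM ranged from 296322 to 342231, and read depth is unknown. At 1/10 LD50 on day 7, replicates 2 and 3 stood apart, with 21.7% and 25.9% of FPKM in 15 mitochondrially encoded genes against a median of 9.60% over all libraries. A set of 7 libraries, which includes the former of these (saline replicate 3, replicate 3 of each dose on day 1, replicate 2 of 1/10 LD50 on day 7, and replicate 3 of 1/10 and of 1/5 LD50 on day 14) lay between the other members of their group for 47.6% to 76.5% of the genes that were over 2-fold apart, against a median of 17.1% in the rest. Each of the 7 was chosen because that share exceeded the share of every library of other groups set between the same pair. The share alone does not separate them: 1/10 LD50 day 3 replicate 3, which was not chosen, had 61.9%. Counts of called members are given with and without both sets of libraries. Shares of all genes called are given for the main fit only.

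In saline, the 88 genes together made up 3.09, 3.00 and 2.99% of summed FPKM in the 3 libraries. On day 1 the 1/10 LD50 libraries held 3.03, 3.30 and 3.23%, the 1/5 LD50 libraries 3.05, 3.38 and 3.30% and the 1/2 LD50 libraries 3.41, 3.22 and 3.29%. Replicate 1 of 1/10 and of 1/5 LD50 lay inside the saline range, and the other libraries of that day lay above it. On day 3 all 9 libraries exceeded every saline library, with 3.66, 3.83 and 3.39% for the lowest dose, 3.74, 3.71 and 3.50% for the middle dose and 3.98, 3.79 and 3.62% for the highest. The highest shares of all were those of 1/5 LD50 on day 7, at 3.98, 4.09 and 4.19%, which is 1.35 times the saline mean. At 1/2 LD50 on day 7 they were 3.89, 3.52 and 3.67%, also above saline. The 1/10 LD50 group of that day was split: replicate 1 held 3.58%, above saline, while the 2 libraries of high mitochondrial share held 2.49% and 1.97%, below it. With the mitochondrially encoded genes left out of the total, these 2 libraries held 3.18% and 2.66%. The saline libraries then held 3.47, 3.21 and 3.24%, so replicate 2 lay just below saline and replicate 3 further below. On day 14 the shares of all FPKM had come down to 3.39, 3.11 and 3.55%, 3.28, 3.53 and 3.35% and 3.42, 3.36 and 3.40% at the 3 doses, and all 9 libraries were still above the highest saline library. These shares are a description of the summed level and were not tested. In bulk brain RNA, a change in the number of cells with many ribosomes and a change in the RNA of each cell cannot be told apart.

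**Figure D1:**
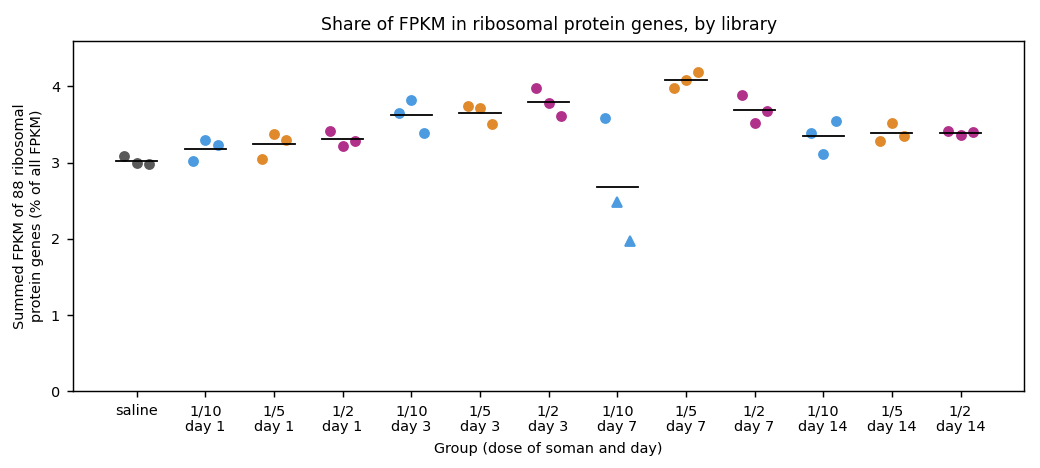
Summed FPKM of the 88 ribosomal protein genes as a percent of all FPKM (vertical axis) in each library, by group (horizontal axis). Each point is 1 library, black lines are group means, and triangles mark the 2 libraries of high mitochondrial share. Libraries of 1/2 LD50 on day 1, of day 3, of the higher doses on day 7 and of day 14 lie above the saline libraries. The triangles lie below the saline libraries.

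The most abundant members by mean FPKM were Rplp1, an acidic protein of the large subunit's stalk (396), Rps15 (318), Rpl4 (278), Rpl3, which lies close to the peptidyl transferase centre (259), Rpl13a (256) and Rpl23a (251). At the other end of the tested members, Rpl34 and Rpl21 had means of 4.35 and 3.83 FPKM and Rpl29 had 0.867 FPKM. These low values stand beside many near-identical copies of the genes elsewhere in the table: of the 83 members with a coding sequence in GENCODE vM21, 77 had at least 1 other transcript of 95% identity or more over 90% of it, and 64 had such a copy at a mean of 1 FPKM or more. Those with none included Rpl8, Rpl39l, Rpl3l, Rps3 and Rps27l.

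Most members varied together from library to library. Once group means were removed, the correlation of log2(FPKM + 1) between pairs of the 77 members of mean 10 FPKM or more had a median of 0.51, with 90.5% of pairs above 0. Over 5955 other genes of the same minimum level the median was 0.10, with 61.5% above 0. These pairs share the same 39 libraries and are described without a test. Without the 2 libraries of high mitochondrial share, which leaves their group with a lone library that drops out, the medians were 0.30 and 0.06, with 85.8% and 57.4% of pairs above 0. Without the 7 libraries that lay between others they were 0.57 and 0.11, with 91.9% and 61.7% above 0. Leaving these libraries out of the correlations and spreads was chosen after seeing the data. The spread within groups differed widely between members. Rpl27, Rpl24 and Rpl4 were the steadiest, with within-group SDs of 0.07, 0.07 and 0.09 on the log2 scale. In 11 members the SD exceeded 0.5: Rpl35a, Rps18, Rps26, Rps3a2, Rpl21, Rps3a3, Rps2, Rpl26, Rps27, Rps27a and Rpl7a. Only 1.44% of all tested genes were as variable. Without either set of libraries the SD exceeded 0.5 in 10 members, all of the above but Rpl26, against 1.34% of all genes without the 2 libraries and 1.81% without the 7.

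**Figure D2:**
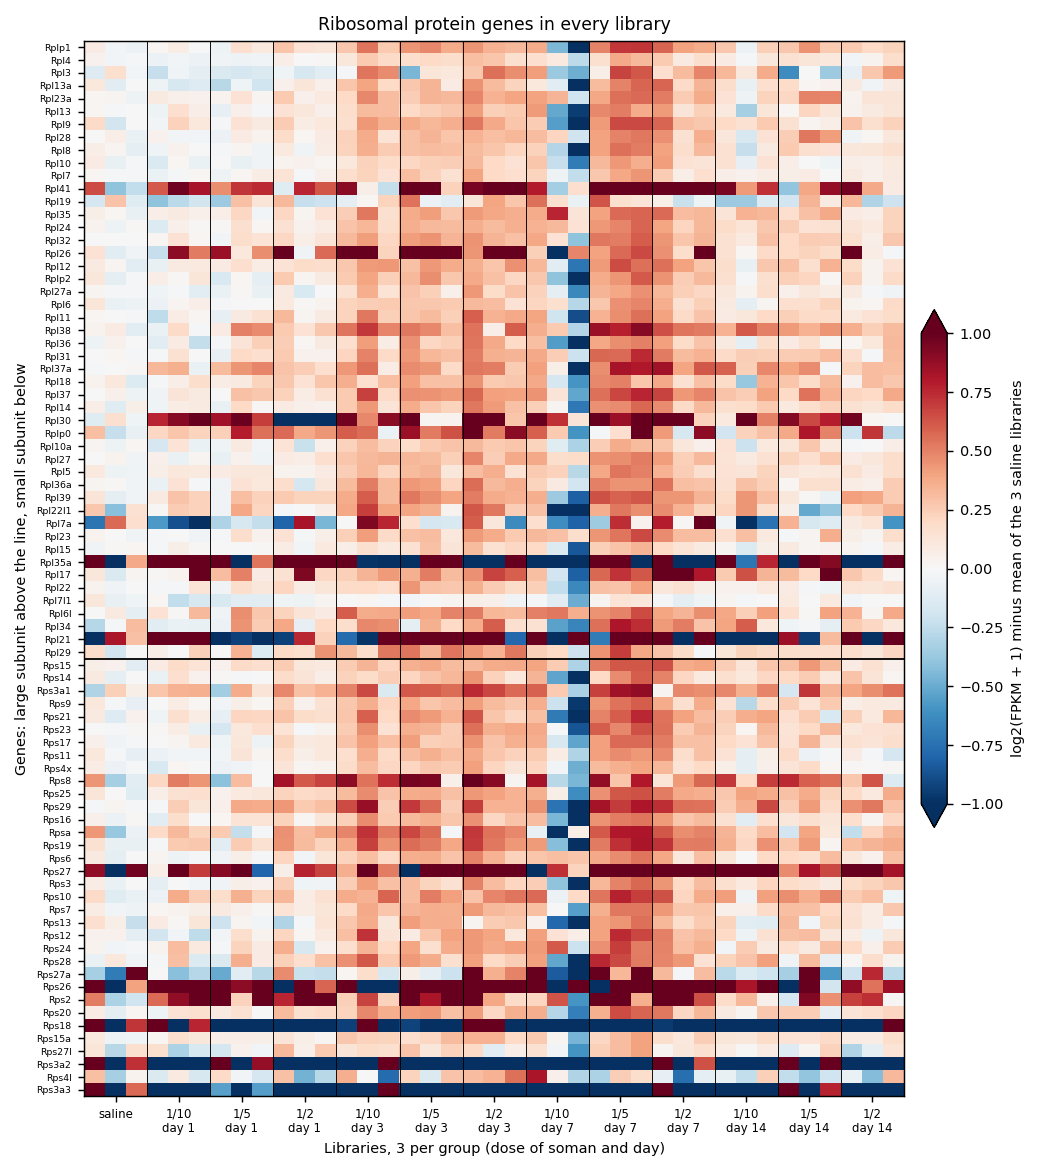
Tested ribosomal protein genes (rows, large subunit above the line, small subunit below, each ordered by mean FPKM) in each library (columns, 3 per group), coloured by log2(FPKM + 1) minus the mean of the 3 saline libraries. Colours are saturated beyond 1 in either direction. Broad pale red bands mark days 3 and 7, replicate 3 of 1/10 LD50 on day 7 is blue in most rows, and rows of mixed strong colours are members such as Rpl35a, Rps26, Rps27 and Rps18.

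Many variable members had a row that mirrored them. For 63 members, the most abundant near-identical copy that is no member itself had a mean of 1 FPKM or more, and in 14 of these pairs the member and its copy were correlated below -0.5 over the 39 libraries after group means were removed. The pairs included Rps27 with Rps27rt (r = -0.87), Rps26 with Rps26-ps1 (-0.82), Rpsa with Rpsa-ps10 (-0.82), Rpl41 with Gm10076 (-0.80), Rplp0 with Gm8730 (-0.77), Rpl35a with Gm10243 (-0.77) and Rpl30 with Gm12191 (-0.70). The 14 include 7 of the 11 variable members, namely Rps27, Rps26, Rpl35a, Rps27a, Rpl7a, Rps2 and Rpl26. The median over all 63 pairs was 0.19. Pairs below -0.5 numbered 14 without the 2 libraries of high mitochondrial share and 13 without the 7 between others, with medians of 0.13 and 0.28. Sequencing reads that match a member and its copy alike may be placed in either row, so the values of these members are uncertain. Stretches of coding sequence show how little separates them. The capital marks the base that differs, and positions are counted from 1 at the first base of the start codon.
Rpl30, coding bases 66 to 125, gene at chr15:34440505-34443640, minus strand: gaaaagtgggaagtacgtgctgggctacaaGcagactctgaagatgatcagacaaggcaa
Gm12191, same bases, chr11:49678710-49679057, minus strand: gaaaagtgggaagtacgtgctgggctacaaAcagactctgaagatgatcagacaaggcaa
Rps26, coding bases 1 to 59, gene at chr10:128624534-128626747, minus strand: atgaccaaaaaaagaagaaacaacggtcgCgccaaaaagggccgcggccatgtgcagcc
Rps26-ps1, same bases, chr8:107439131-107439579, minus strand: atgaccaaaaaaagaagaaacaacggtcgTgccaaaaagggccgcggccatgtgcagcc
Rpl35a, coding bases 126 to 185, gene at chr16:33056453-33060189, plus strand: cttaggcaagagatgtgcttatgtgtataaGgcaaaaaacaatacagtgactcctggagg
Gm10243, same bases, chr6:48523518-48523850, plus strand: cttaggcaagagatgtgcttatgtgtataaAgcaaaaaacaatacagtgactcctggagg
Rpl30 and Gm12191 differ by G96A alone, Rpl35a and Gm10243 by G156A alone, and Rps26 and Rps26-ps1 by C30T and G270A, while Rps27 and Rps27rt have the same coding sequence throughout. Positions are those of GRCm38 in GENCODE vM21, not of the alignment behind the deposited values.

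Rps26, whose product sits at the messenger RNA exit of the small subunit, had 73.0, 5.60 and 32.6 FPKM in the saline libraries, where Rps26-ps1 had 47.8, 85.6 and 70.2 FPKM. Where the member was low, the copy was high. Rps27 was listed at 120.2, 17.3 and 127 FPKM in saline, and Rps27rt at 19.9, 56.9 and 11.1 FPKM. Rpl35a had 75.8, 7.49 and 36.7 FPKM in saline, beside 10.6, 21.9 and 18.5 FPKM of Gm10243. In Rps18, the values 76.2, 2.57 and 33.9 FPKM in saline and 71.7, 6.79 and 35.0 FPKM at 1/10 LD50 on day 1 placed replicate 3 between replicates 1 and 2. Rps3a2, which has no coding sequence in the annotation, did the same, with 30.7, 1.33 and 17.3 FPKM in saline, 30.7, 1.51 and 19.4 at 1/5 LD50 on day 1 and 38.2, 1.68 and 23.1 at 1/5 LD50 on day 14. In each of these groups replicate 3 is among the 7 libraries that lay between the others. At 1/2 LD50 on day 7, whose replicate 3 is not among them, Rps3a2 had 38.9, 1.37 and 16.2 FPKM.

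**Figure D3:**
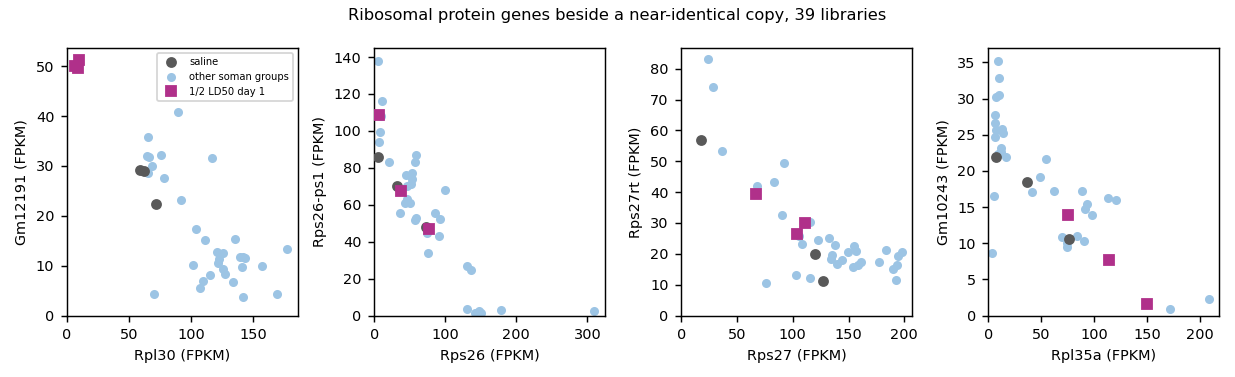
FPKM of 4 ribosomal protein genes (horizontal axes) against a near-identical copy of each (vertical axes) in 39 libraries. Dark circles are saline, squares 1/2 LD50 on day 1 and pale circles the other soman groups. In each panel most libraries with a high value of the member have a low value of the copy, and the 3 squares of Rpl30 stand at the upper left, at 9.58, 6.60 and 8.77 FPKM of the member.

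On the first day after injection, the median changes of the members were small. The median log2 change over the 84 members was 0.04 at 1/10 LD50, 0.07 at 1/5 LD50 and 0.12 at 1/2 LD50, against -0.02, -0.03 and -0.01 over all tested genes. No member passed the threshold of 0.05 (limma, with Benjamini-Hochberg adjustment across the 14701 tested rows) at 1/10 LD50, where 0.347% of all genes changed, or at 1/5 LD50, where 0.0136% did. At an unadjusted p under 0.05 there were 6 and 4 members at these doses, against 10.7% and 5.73% of all genes. At 1/2 LD50, 1 member fell, Rpl30, where 0.0884% of all genes fell. All 3 soman libraries lay above all 3 saline libraries in 9, 4 and 29 members at 1/10, 1/5 and 1/2 LD50. This held for 9.09%, 4.27% and 7.93% of all genes. All lay below saline in 1, 3 and 1 members, against 13.4%, 9.98% and 9.60% of all genes.

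Rpl30, a large subunit protein whose yeast counterpart also binds its own transcript, had 59.0, 72.1 and 62.4 FPKM in saline and 9.58, 6.60 and 8.77 FPKM at 1/2 LD50 on day 1 (log2 change -2.82 ± 0.31, adjusted p = 4.7e-06, ± SE, n = 3 libraries per group, limma). All 3 libraries lay far below the lowest saline library. On the same day the other doses had higher values, 109.5, 122 and 134 FPKM at 1/10 LD50 and 116, 128 and 104 FPKM at 1/5 LD50, which did not pass the test (adjusted p = 0.22 and 0.61). The copy Gm12191 went the other way: it had 29.1, 22.3 and 28.9 FPKM in saline, 51.2, 50.1 and 49.7 FPKM at 1/2 LD50, 6.85, 10.5 and 6.63 FPKM at 1/10 LD50 and 8.19, 8.24 and 17.3 FPKM at 1/5 LD50. With the FPKM of all near-identical copies added to that of Rpl30, the sums were 99.95, 101 and 105 FPKM in saline and 76.6, 70.1 and 72.9 FPKM at 1/2 LD50 on day 1. The log2 change of the sum was -0.47 and no longer passed the test in limma. This sum was chosen after seeing the data and adds values of rows of different length.

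On day 3 most members were higher than in saline at every dose, 76, 78 and 81 of the 84 by their log2 change. The median log2 change was 0.29 at 1/10 LD50, 0.32 at 1/5 LD50 and 0.37 at 1/2 LD50, against 0.00, 0.01 and 0.04 over all tested genes. Once the dependence on transcript length in each library was taken out, the medians were 0.17, 0.17 and 0.19. These changes are on the log2(FPKM + 1) scale, which understates the change of low genes. Past the threshold, 7 of 84 members rose at 1/10 LD50, where 1.61% of all genes rose, 18 at 1/5 LD50, where 2.48% rose, and 25 at 1/2 LD50, where 3.79% rose and 4.65% fell. No member fell on that day. At 1/5 and 1/2 LD50, all 3 soman libraries lay above all 3 saline libraries in 64 and 68 members, which held for 16.3% and 20.3% of all tested genes. Both subunits took part: at 1/2 LD50 the median was 0.37 over 49 large subunit members and 0.36 over 35 small subunit members.

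**Figure D4:**
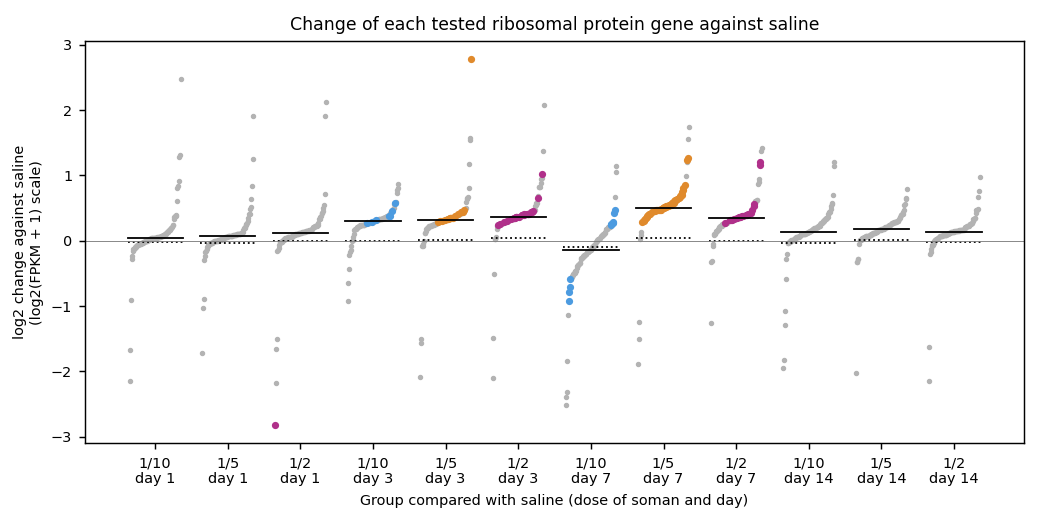
Log2 change of each of the 84 tested ribosomal protein genes against saline (vertical axis, log2(FPKM + 1) scale) in the 12 soman groups (horizontal axis), ordered by size within each group. Coloured points passed the test (adjusted p under 0.05), solid lines are the members' medians and dotted lines the medians of all tested genes. The solid lines lie above the dotted ones except at 1/10 LD50 on day 7.

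Among the largest rises on day 3 at 1/10 LD50 was Rpl38, a large subunit protein known for its part in translating Hox messenger RNAs in the embryo. It had 100.2, 104 and 90.5 FPKM in saline and 142, 161 and 138 FPKM at 1/10 LD50 on day 3, without overlap (log2 change 0.58 ± 0.13, adjusted p = 0.0068, limma). Rpl6l, which has no coding sequence in the annotation, went from 5.84, 6.32 and 5.47 FPKM to 9.43, 7.87 and 7.95 FPKM (log2 change 0.45 ± 0.11, adjusted p = 0.010). Rps12, a small subunit protein, went from 89.2, 89.2 and 80.9 to 107, 143 and 94.7 FPKM, again without overlap (log2 change 0.39 ± 0.12, adjusted p = 0.0492). The Rps12 change was 0.22 without soman replicate 2, and its call was kept only when soman replicate 3 was the library left out. Rpl38 lost its call without soman replicate 2, and Rpl6l without soman replicate 1 or saline replicate 3. At 1/5 LD50 the 3 largest were Rps2, Rpl29 and Rpl37. Rps2, near the messenger RNA entry of the small subunit, had 15.6, 8.35 and 9.09 FPKM in saline and 224, 19.5 and 109 FPKM at 1/5 LD50 (log2 change 2.78 ± 0.70, adjusted p = 0.012), with its copy Rps2-ps10 at 144, 150.0 and 181 and 4.72, 201 and 87.0 FPKM. Summed with its copies, Rps2 had a log2 change of 0.11 in that comparison. Rpl29 stayed near 1 FPKM, at 1.30, 1.00 and 1.29 FPKM against 0.788, 0.394 and 0.585 FPKM in saline (log2 change 0.47 ± 0.13, adjusted p = 0.018). Rpl37 had 82.5, 85.8 and 80.1 FPKM in saline and 114, 113 and 112 FPKM at 1/5 LD50 (log2 change 0.45 ± 0.14, adjusted p = 0.0497), a call lost without any 1 of the 6 libraries. Rps2 and Rpl29 lost theirs without soman replicate 1 or saline replicate 3, and Rpl29 also without saline replicate 2.

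At 1/2 LD50 on day 3 the largest rises were Rpl41, the smallest ribosomal protein, Rps3a1 and Rpl37. Rpl41 had 187, 89.7 and 100.5 FPKM in saline and 231, 252 and 243 FPKM at 1/2 LD50 (log2 change 1.01 ± 0.32, adjusted p = 0.043, limma), and all 3 soman libraries exceeded the highest saline library. Its copy Gm10076, of identical coding sequence, had 7.05, 59.8 and 42.4 FPKM in saline and 28.4, 3.74 and 16.4 FPKM at 1/2 LD50. Rps3a1 had 139, 202 and 178 FPKM in saline and 288, 272 and 254 FPKM at 1/2 LD50 (log2 change 0.66 ± 0.20, adjusted p = 0.041). Rpl37 reached 124, 110.3 and 109.8 FPKM (log2 change 0.46 ± 0.14, adjusted p = 0.042). Rpl37 lost its call without any 1 of the 6 libraries, Rpl41 without any but saline replicate 1, and Rps3a1 without any but saline replicate 2. Most other calls were smaller and tighter: from 0.25 for Rpl7 and Rpl4 to 0.44 for Rps10 and Rpl29. The counts of day 3 depended on single libraries. At 1/10 LD50 they were 4, 3 and 2 without saline replicate 2, saline replicate 3 or soman replicate 2. At 1/5 LD50 they were 11, 6 and 3 without saline replicates 1, 2 and 3, and 4 and 6 without soman replicates 1 and 2. At 1/2 LD50 they were 13, 9 and 5 without saline replicates 1, 2 and 3, and 2 and 13 without soman replicates 1 and 2. Without the 7 libraries that lay between others, which include saline replicate 3, the counts were 0, 1 and 2, with medians of 0.29, 0.31 and 0.35. Without the 2 libraries of high mitochondrial share, which belong to no group compared here but enter the common estimate of spread, they were 50, 51 and 60. Leaving them out changes the spread of every tested gene, and the share of all genes called in that setting is not given. With the length trend taken out the counts of members were 2, 2 and 2.

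Day 7 held both the highest and the lowest summed shares of the series. At 1/5 LD50, 52 of 84 members rose and none fell, where 6.49% of all genes rose and 8.87% fell. The median log2 change was 0.50, against 0.03 over all tested genes. In 69 members the 3 soman libraries all exceeded the 3 saline libraries, against 21.7% of all genes. The rise covered 33 of 49 large subunit and 19 of 35 small subunit members, with medians of 0.47 and 0.53. Leaving out any 1 of the 6 libraries gave 35 to 48 members. Without the 7 libraries that lay between others the count was 25, without the 2 of high mitochondrial share it was 67, and with the length trend taken out it was 21, with a median of 0.29.

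The largest called rises at 1/5 LD50 on day 7 were those of Rpl41, Rpl30 and Rpl38. Rpl41 reached 283, 276 and 303 FPKM (log2 change 1.26 ± 0.32, adjusted p = 0.0069, limma), and Rpl30 169.5, 117 and 178 FPKM (log2 change 1.23 ± 0.31, adjusted p = 0.0065). Every one of these libraries was above saline. Gm10076, the copy of Rpl41, had 19.9, 17.4 and 6.31 FPKM there, against 7.05, 59.8 and 42.4 FPKM in saline. Summed with its copies, Rpl30 had a log2 change of 0.81 and kept its call. Rpl38 had 179, 169 and 185 FPKM against 100.2, 104 and 90.5 FPKM in saline, 1.81 times the saline mean (log2 change 0.85 ± 0.13, adjusted p = 5.5e-05). The smallest p values belonged to members with tight replicates. Rpl27 had 76.1, 77.4 and 73.7 FPKM in saline and 103, 105 and 108 FPKM at 1/5 LD50 (log2 change 0.47 ± 0.06, adjusted p = 4.8e-06). Rpl24, which joins the subunits by a bridge, went from 163, 154 and 161 to 215, 223 and 239 FPKM (log2 change 0.50 ± 0.07, adjusted p = 7.5e-06). Rpl23 went from 58.8, 57.1 and 56.0 to 78.1, 83.5 and 91.3 FPKM (log2 change 0.55 ± 0.08, adjusted p = 5.5e-05). None of these 3 genes had a soman library inside its saline range.

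The most abundant members also rose at 1/5 LD50 on day 7. Rplp1 had 471, 547 and 549 FPKM against 355, 327 and 321 in saline (log2 change 0.64 ± 0.21, adjusted p = 0.041), and Rps15 378, 409 and 409 FPKM against 277, 274 and 246 (log2 change 0.58 ± 0.10, adjusted p = 2.7e-04). Rpl4, Rpl13a and Rpl23a rose by 0.29, 0.46 and 0.50 on the log2 scale. Rpl3 did not pass the test, with 249, 382 and 368 FPKM against 218, 266 and 235 FPKM and 1 soman library inside the saline range (adjusted p = 0.11). None of the 11 members of large within-group spread named above was called.

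At 1/2 LD50 on day 7, 20 members rose and none fell, where 1.71% of all genes rose, with a median log2 change of 0.34 against 0.00 over all genes. In 66 members all soman libraries exceeded all saline libraries, against 13.5% of all genes. Rpl17 had the largest log2 change among those called, with 105, 65.1 and 54.3 FPKM against 33.3, 27.8 and 31.3 FPKM in saline (log2 change 1.20 ± 0.26, adjusted p = 0.0041, limma), and its copy Rpl17-ps10 had 30.2, 40.7 and 56.5 against 49.0, 50.9 and 44.5 FPKM. Summed with its copies, Rpl17 had a log2 change of 0.46 and kept its call. Rpl41 had 298, 259 and 251 FPKM (log2 change 1.17 ± 0.32, adjusted p = 0.020) and Rpl38 153, 142 and 141 FPKM (log2 change 0.57 ± 0.13, adjusted p = 0.0067). Gm10076, the copy of Rpl41, had 12.5, 5.97 and 7.52 FPKM there, against 7.05, 59.8 and 42.4 FPKM in saline. The count was 12, 12 and 6 without saline replicates 1, 2 and 3, and 2 without soman replicate 1. It was 3 without the 7 libraries that lay between others, 52 without the 2 of high mitochondrial share, and 6 with the length trend removed, with a median of 0.22. Rpl17, Rpl41 and Rpl38 were not called without soman replicate 1, and Rpl41 also not without saline replicate 2 or 3.

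At 1/10 LD50 on day 7 the members went in both directions. The median log2 change was -0.14, against -0.09 over all genes, and it was -0.08 with the length trend removed. Of 84 members 6 rose, where 4.23% of all genes rose, and 4 fell, where 15.3% of all genes fell. The fall lay in replicates 2 and 3. Rpl22l1 had 80.0, 24.7 and 19.7 FPKM there and 78.6, 48.5 and 72.6 FPKM in saline (log2 change -0.92 ± 0.27, adjusted p = 0.017, limma). Rps21 had 222, 110.4 and 45.6 FPKM against 192, 165 and 185 FPKM (log2 change -0.79 ± 0.26, adjusted p = 0.035), and Rps13 102, 57.2 and 37.7 against 112, 103 and 84.5 FPKM (log2 change -0.71 ± 0.18, adjusted p = 0.0097). In Rpl22l1 and Rps21 replicate 1 exceeded all saline libraries, in Rps13 it lay within their range, and in all 3 genes replicate 3 was lowest. Rpl9 was the fourth that fell, by 0.59 on the log2 scale. Without replicate 3 the changes of Rpl22l1, Rps21 and Rps13 were -0.54, -0.20 and -0.37, and none was called. Without replicate 1 they were -1.52, -1.33 and -1.08.

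In replicate 3, whose mitochondrial share was the highest, only 16 of 84 members were above their saline mean, and the median difference was -0.54. Genes in general were lower in this library too. Over genes above 1 FPKM in every library, its median ratio to their geometric mean was 0.87, against 1.02, 1.00 and 1.02 in saline. On the log2 scale Rps21, Rps28 and Rplp1 differed from saline by -1.96, -1.52 and -1.48 there, whereas Rps6, Rpl27, Rpl23 and Rpl24 differed by 0.27, 0.18, 0.18 and 0.15. Variable members lay at both ends, with Rps18 at -2.94 and Rps26 at 3.61. The members that rose at 1/10 LD50 included Rpl6l, with 8.76, 8.87 and 7.82 FPKM (log2 change 0.46 ± 0.11, adjusted p = 0.0048), Rpl35, with 206, 270.3 and 174 against 165, 161 and 151 FPKM (log2 change 0.42 ± 0.11, adjusted p = 0.0086), and Rps6, with 146, 148 and 145 FPKM (log2 change 0.28 ± 0.08, adjusted p = 0.012). All 3 libraries of each lay above the saline range. The Rpl35 change was 0.25 and not called without replicate 2, 1 of the 2 libraries of high mitochondrial share, and Rps6 was not called without saline replicate 2. Replicate 1 alone, compared without the 2 libraries of high mitochondrial share, gave a median of 0.32 over members, close to the other groups of days 3 and 7, and no member passed the test with that 1 library. The 3 named falls turned to 0.29, 0.30 and 0.04 in that fit, which assumes that the lone library varies like the other groups. Without replicate 1 the count was 43, and without saline replicate 3 it was 6. The part of the mitochondrial share in these values was not tested.

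The doses of day 7 were also compared with each other, without saline. At 1/5 against 1/10 LD50, 67 members were higher and none lower, where 21.8% of all genes were higher. Rps27 led with 198, 184 and 194 FPKM against 23.9, 108 and 75.6 FPKM (log2 change 1.70 ± 0.59, adjusted p = 0.031, limma), followed by Rpl26 at 161, 182 and 194 against 144, 6.02 and 171 FPKM (log2 change 1.68 ± 0.62, adjusted p = 0.044) and Rps27a, which encodes a small subunit protein joined to ubiquitin, at 182, 77.6 and 209.5 against 128, 34.2 and 24.0 FPKM (log2 change 1.58 ± 0.47, adjusted p = 0.014). In Rps27 all 3 libraries at 1/10 LD50 lay below those at 1/5 LD50, whereas in Rpl26 and Rps27a the groups overlapped. The Rps27 change was 1.08 and not called without 1/10 LD50 replicate 1, and 0.99 when summed with its copies, which include Rps27rt. Rpl26 had a change of 0.18, not called, without 1/10 LD50 replicate 2, and of 0.72 when summed with its copies. Without both libraries of high mitochondrial share the changes of Rps27, Rpl26 and Rps27a were 2.95, 0.31 and 0.16, and none was called. The count was 0 in a model of these 2 groups only, 0 without the 2 libraries of high mitochondrial share, and 43 without 1/10 LD50 replicate 3.

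By day 14 no member passed the test at any dose (limma), where 0.435%, 0.163% and 0.415% of all genes changed at 1/10, 1/5 and 1/2 LD50. The median log2 changes were 0.13, 0.18 and 0.14, above the -0.04, 0.01 and -0.01 of all genes. At an unadjusted p under 0.05 there were 14, 19 and 8 members, against 11.3%, 10.4% and 8.93% of all genes. In 32, 42 and 26 members all soman libraries lay above all saline libraries, against 6.35%, 14.2% and 7.24% of all genes. Compared with day 7 over the 3 doses, 14 members were lower on day 14 and none higher, where 11.5% of all genes were lower. Rps12 fell by 0.27 on the log2 scale (adjusted p = 0.0048), Rpl23 by 0.26 (2.2e-04; -0.17 and not called when summed with its copies) and Rps24 by 0.25 (0.015). Without 1/10 LD50 day 7 replicate 3, the count was 35, and without both libraries of high mitochondrial share it was 60.

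Over all 12 soman groups together, 5 members rose against saline, where 0.415% of all genes rose: Rpl38 (log2 change 0.40 ± 0.10, adjusted p = 0.026), Rpl6l (log2 change 0.33 ± 0.08, adjusted p = 0.025), Rpl24 (log2 change 0.22 ± 0.05, adjusted p = 0.013), Rpl27 and Rps6 (limma). No call was left without any 1 of the saline libraries. There were 8 calls without replicate 3 of 1/5 LD50 on day 3, 12 without replicate 1 and 26 without replicate 3 of 1/10 LD50 on day 7, and 41 without both libraries of high mitochondrial share. With the length trend removed no member was called. Differences between days within the soman groups were called in 39 members, a share of 46.4% that is near the 49.5% of all tested genes. Rpl27 (adjusted p = 2.9e-08), Rpl24 (3.0e-07), Rpl23 (4.8e-06), Rps6 (5.9e-06) and Rpl30 (6.6e-06) were among those of smallest p. Of these 39 members, 37 were lowest on day 1, 22 were highest on day 3 and 17 on day 7. This order was not counted over all tested genes, so it is not shown to be particular to the members. There were 62 and 60 calls without replicate 1 or 3 of 1/10 LD50 on day 7.

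Differences between doses, averaged over days, were called in 1 member, Rpl30 (adjusted p = 0.0011, limma), where 1.90% of all genes were called. The average of Rpl30 at 1/2 LD50 includes day 1, where its copy Gm12191 went the other way. Among the next members by p were Rpl28, Rps7, Rps2 and Rps13, with adjusted p between 0.0526 and 0.078. Leaving out replicate 1 of 1/10 LD50 on day 7, whose group then holds only the 2 libraries rich in mitochondrial RNA, gave 54 calls. There were 3 calls without 1/10 LD50 day 14 replicate 3, and 2 without each of 1/5 LD50 day 1 replicate 2, 1/5 LD50 day 3 replicate 2, 1/2 LD50 day 7 replicate 2 and 1/5 LD50 day 14 replicate 1. A dose effect that differs between days was called in 6 members, where 1.59% of all genes were called, and these are described in the closing section.

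Some members are known for roles beyond the ribosome. Rpl5 and Rpl11, which with 5S ribosomal RNA bind Mdm2 and so restrain the breakdown of p53, had 79.3, 71.5 and 72.0 and 116, 114 and 113 FPKM in saline. At 1/5 LD50 on day 7 Rpl5 reached 97.2, 108 and 105 FPKM (log2 change 0.47 ± 0.09, adjusted p = 4.9e-04, limma), without overlap. Rpl11 had 146, 158 and 168 FPKM, also without overlap, and did not pass the test (log2 change 0.45 ± 0.16, adjusted p = 0.0541). Rps6, the small subunit protein phosphorylated by S6 kinases, rose from 128, 113 and 120.2 to 156, 167 and 174 FPKM (log2 change 0.46 ± 0.08, adjusted p = 1.5e-04). Rplp0, which anchors the stalk, had 92.6, 63.7 and 71.1 FPKM in saline and 74.0, 84.1 and 157 FPKM at 1/5 LD50 on day 7, with overlap and no call (adjusted p = 0.36). Rpsa, a small subunit protein also known as the laminin receptor, went from 163, 92.7 and 116 to 185, 210.4 and 212 FPKM (log2 change 0.74 ± 0.22, adjusted p = 0.019). Its copy Rpsa-ps10 had 4.95, 55.4 and 33.2 FPKM in saline and between 5.23 and 6.16 FPKM in the 3 libraries at 1/5 LD50 on day 7. Summed with its copies, Rpsa had a log2 change of 0.42 and kept its call, which the row alone lost without saline replicate 2 or 3 or soman replicate 2 or 3.

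Paralogues of ribosomal proteins were compared with their main genes at 1/5 LD50 on day 7. Rpl22 had 22.0, 20.9 and 21.4 FPKM in saline and 26.6, 26.4 and 28.7 FPKM at 1/5 LD50 (log2 change 0.33 ± 0.11, adjusted p = 0.040, limma), a call lost without any 1 of the 6 libraries. Its paralogue Rpl22l1 had the higher FPKM of the pair, at 78.6, 48.5 and 72.6 FPKM in saline and 84.3, 94.1 and 90.4 FPKM, and did not pass (log2 change 0.45 ± 0.27, adjusted p = 0.26). Rpl7 rose from 182, 179 and 178 to 217, 235 and 245 FPKM (log2 change 0.37 ± 0.08, adjusted p = 0.0019). Rpl7l1 stayed between 13.2 and 14.3 FPKM in these libraries, against 14.1, 12.2 and 12.5 FPKM in saline (log2 change 0.09 ± 0.08, adjusted p = 0.43). Rps27l, a p53 target in other settings, had 17.2, 12.8 and 17.8 FPKM in saline and 18.8, 19.8 and 21.2 FPKM (log2 change 0.32 ± 0.14, adjusted p = 0.13), and Rps27 198, 184 and 194 FPKM, all above saline but without a call (adjusted p = 0.071). Rpl10, Rpl39 and Rps4x rose by 0.37, 0.62 and 0.35, while Rpl10l was listed at 0, Rpl39l and Rpl3l were under 1 FPKM in every library, and Rps4l had 2.84, 4.66 and 4.39 FPKM against 4.89, 2.79 and 3.90 FPKM. Whether a paralogue and its main gene changed differently was not tested.

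Promoter sequences were searched for short motifs. RefSeq promoters (GRCm38.p6, 250 bases before to 50 after the start) were found for 64 members. The core of ETS factor sites, CGGAAG on either strand, occurred in 42 of them (65.6%), against 17.2% of 27025 promoters. The letters CTTTC or CTTCC on the given strand, from 20 bases before to 30 after the start, occurred in 35 (54.7%), against 16.3%. A TOP motif begins at the start itself, so a match elsewhere in this window need not be one. CTTCC is also part of CTTCCG, which is CGGAAG on the other strand, so both counts can hold the same bases, as in Rpl37a. TATAAA on either strand occurred in 10.9% of members and 14.2% of all promoters. Windows from 60 bases before to 30 after the start are shown for 3 members described above, with CGGAAG in capitals.
Rpl38, chr11:114668520-114668609, plus strand: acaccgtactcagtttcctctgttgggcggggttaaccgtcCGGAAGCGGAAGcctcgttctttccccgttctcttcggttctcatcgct
Rpl24, chr16:55966215-55966304, plus strand: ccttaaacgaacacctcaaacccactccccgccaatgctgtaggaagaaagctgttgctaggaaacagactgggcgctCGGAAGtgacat
Rps15, chr10:80292371-80292460, plus strand: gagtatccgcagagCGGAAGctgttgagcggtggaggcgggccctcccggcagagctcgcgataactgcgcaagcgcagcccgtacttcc
In Rpl38 the letters occur as 2 adjoining copies. A match describes the sequence and is not a measured site.

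Other genes of translation were counted at 1/5 LD50 on day 7, where 6.49% of all tested genes rose, 8.87% fell and the median was 0.03. In the list of other TOP messenger RNAs and snoRNA host genes, 15 of 25 tested genes rose and none fell, with a median of 0.30. Among them Gas5, a non-coding snoRNA host gene with a TOP start, had 57.6, 59.3 and 69.4 FPKM in saline and 109, 106 and 105 FPKM at 1/5 LD50 (log2 change 0.78 ± 0.12, adjusted p = 8.8e-05, limma). Tpt1, the translationally controlled tumour protein, rose by 0.35 and Eif3h, a subunit of an initiation factor, by 0.26, and both are counted again in the lists of elongation and initiation factors. Of 11 elongation factors 6 rose, with a median of 0.26, and Eef1d and Eef1g rose by 0.35 and 0.42. Of 36 initiation factors 5 rose, Eif3f and Eif1b among them by 0.35 and 0.32, and 2 fell, with a median of 0.09. Of 53 ribosome biogenesis genes 4 rose and none fell, with a median of 0.03, including Rrp9, Gar1 and Emg1 at 0.36, 0.30 and 0.29, a share close to that of all genes. In the list of mTORC1 and TOP control, 6 of 22 fell and 1 rose: Larp1, which binds TOP messenger RNAs, fell by 0.38, Mtor by 0.38 and Larp4 by 0.35. Of 18 genes of ribosome quality control 2 rose and 3 fell, with Edf1 at 0.33, Rnf10 at 0.20 and Znrf2 at -0.31. Of 13 tested p53 targets 1 rose, Bax at 0.38, and 1 fell, Sesn2 at -0.32, shares also close to those of all genes.

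**Figure D5:**
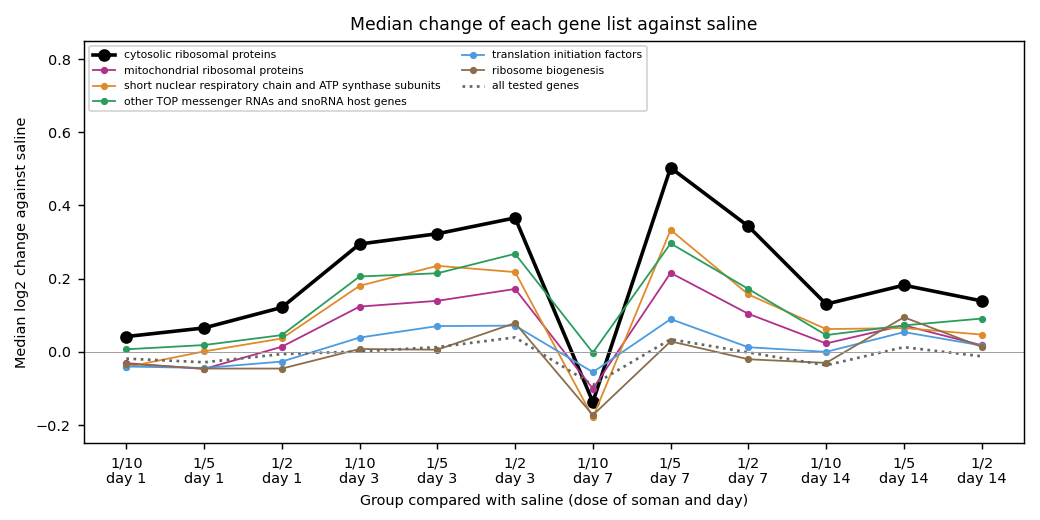
Median log2 change against saline (vertical axis) of the cytosolic ribosomal protein genes, 5 other gene lists and all tested genes in the 12 soman groups (horizontal axis). The black line of the ribosomal protein genes is highest in the groups of day 3 and at the higher doses of day 7, at 0.50 for 1/5 LD50, where the other TOP genes, the mitochondrial ribosomal proteins and the respiratory chain subunits are at 0.30, 0.22 and 0.33.

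Genes of other machinery rose in the same libraries. Of 78 mitochondrial ribosomal protein genes, which have separate genes from the cytosolic ones, 25 rose and none fell at 1/5 LD50 on day 7, with a median of 0.22, led by Mrps36, Mrpl13 and Mrpl54 at 0.40, 0.34 and 0.52. Of 79 nuclear genes of respiratory chain and ATP synthase subunits 32 rose and none fell, with a median of 0.33, led by Ndufa6, Ndufb7 and Atp5j at 0.44, 0.46 and 0.33. At 1/10 LD50 on day 7, 4.23% of all genes rose and 15.3% fell in the main fit. With the length trend taken out, 7 members rose and 8 fell there, and the share of all genes in that setting is not given. Rpl38 kept its call at 1/10 LD50 on day 3 and at 1/5 and 1/2 LD50 on day 7, as did Rpl5, Rps6 and Rpl7 at 1/5 LD50 on day 7. Within the members themselves, the log2 change at 1/5 LD50 on day 7 had a Spearman correlation of -0.24 with transcript length and 0.09 with mean level over 84 genes.

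Markers of other tissue were lower in some of these groups. Of 10 meningeal fibroblast markers 9 fell at 1/5 LD50 on day 7, where 8.87% of all genes fell, and 8 at 1/2 LD50 on day 3, where 4.65% did, with Col3a1, Slc13a4 and Col1a2 down by 1.22, 1.02 and 1.13 in the former, and their sum was 68.8 to 80.9 FPKM in saline, 44.1 to 46.9 FPKM at 1/2 LD50 on day 3 and 33.1 to 43.5 FPKM at 1/5 LD50 on day 7. Groups whose members were called in both directions or not at all also had lower sums: 45.7 to 54.5 FPKM at 1/10 LD50 on day 7, with 6 of the 10 called as lower, and 46.2 to 56.1 FPKM over the 9 libraries of day 14. Of 8 choroid plexus markers 3 fell at 1/5 LD50 on day 7 (Folr1, Kl and Enpp2), with sums of 555 to 766 FPKM in saline and 299.6 to 649 FPKM there. The 7 cerebellar granule cell markers summed to 223 to 278 FPKM in saline. The lowest libraries of 1/10 and 1/5 LD50 on day 3 and of 1/2 LD50 on day 7 had only 24.0, 20.5 and 20.6 FPKM. The highest libraries of these groups had 348, 267 and 135 FPKM, so the tissue content differed between replicates. At 1/5 LD50 on day 7 the sum was 94.3 to 168 FPKM, without a call. Of 9 microglia markers Aif1 rose by 0.54, of 7 endothelial markers Ly6c1 and Slco1a4 rose by 0.81 and 0.34, and of 8 astrocyte markers Slc1a2 fell by 0.27. No neuron, oligodendrocyte or red blood cell marker was called there. None of these markers was at 0 in every library. Their part in the values of the ribosomal protein genes was not tested.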

How the data were processed

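Mouse brain RNA was measured by RNA-seq in 39 libraries of 13 groups, after Trizol extraction and poly(dT) selection, per the labels' protocols. The authors deposited 1 table of FPKM for 47561 rows, with 1 column per library. HISAT2 and the build GRCh38, a human build, are named in the submitters' processing notes, and the program that computed FPKM is not given in the sources used here. Reads, counts and depth were not used here, so no interval for counting error is given.

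Rows were tested where 3 or more libraries reached 1 FPKM, as log2(FPKM + 1), in 1 limma model of the 13 groups (eBayes with trend, limma 3.58.1, R 4.3.3) with Benjamini-Hochberg adjustment over all 14701 rows of each comparison and a threshold of 0.05. The script was tested on simulated data. Shares were computed from summed FPKM. Near-identical copies were found with blastn 2.17.0 in GENCODE vM21 transcripts (GRCm38), at 95% identity or more over at least 90% of the coding sequence. Promoters came from RefSeq (GRCm38.p6). No deposited column was left out.

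The members and gene lists were chosen with earlier results of these data known. In each comparison with saline and the 2 contrasts without it, up to 3 called members of largest change in each direction were named, with the first 6 by p of each F-test, the 6 of highest mean, paralogues and their main genes, and Rpl5, Rpl11, Rpl38, Rps6, Rplp0, Rpsa and Rpl30. In other lists, up to 3 called genes of smallest p at 1/5 LD50 on day 7 were named. Other members were named after their values were seen, and a few genes that the rule names are not reported here. The settings varied were the scaling (median-ratio), the pseudocount (0.1), the filter (none), the model (only the groups compared), a replicate block, summed rows of a symbol, removal of the trend on transcript length (lowess), leaving out the 2 libraries with over 15% mitochondrial FPKM or the 7 that lay between others, each library left out in turn, and sums with near-identical copies.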

Additional observations from a re-analysis of the deposited data

Results flagged for a closer look

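In 6 ribosomal protein genes the effect of dose differed between days by the test of the dose-by-day interaction (limma, adjusted over all tested genes), and they are set out here because groups under the same contrast differed. Rpl30 had the smallest adjusted p, 3.79e-06. Its FPKM at 1/2 LD50 was 9.58, 6.60 and 8.77 on day 1 and 135, 143 and 78.2 on day 3, while at 1/10 LD50 it was 109.5, 122 and 134 and 126, 89.9 and 121, so the low value was found at 1 dose and 1 day. In those libraries its near-identical copy Gm12191 was high, at 51.2, 50.1 and 49.7 FPKM against 29.1, 22.3 and 28.9 in saline. Summed with its copies, Rpl30 was not called there against saline, as given above. In the other 5 genes the dose groups parted on day 7. Rpl34 (adjusted p = 0.0226) had 4.11, 2.16 and 1.90 FPKM at 1/10 LD50 and 5.71, 7.04 and 6.65 at 1/5 LD50 on that day. Rpl39 (0.0345), which lines the exit tunnel of the large subunit, had 81.1, 48.6 and 35.3 and 97.9, 94.9 and 97.1 FPKM in the same groups. In both genes replicates 2 and 3 at 1/10 LD50 were the low libraries.

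Rpl22l1 (adjusted p = 0.0414) was low in the same 2 libraries, and also had 68.1, 45.5 and 49.7 FPKM at 1/5 LD50 on day 14, against 75.6, 88.8 and 72.9 at 1/10 LD50. Rps13 (0.0415) had 102, 57.2 and 37.7 FPKM at 1/10 LD50 on day 7 and 131, 135 and 146 at 1/5 LD50. Rpl38 (0.0498) had 126, 118 and 79.6, 179, 169 and 185 and 153, 142 and 141 FPKM at 1/10, 1/5 and 1/2 LD50 on day 7. Without the 2 libraries of high mitochondrial share, 1 member was called in this test. The count was 57 without replicate 1 of 1/10 LD50 on day 7, 1 without its replicate 2 and 2 without its replicate 3. It was 3 without 1/5 LD50 day 1 replicate 3, and 2 without 1/10 LD50 day 1 replicates 2 or 3, 1/2 LD50 day 1 replicate 3, any 1/5 LD50 day 7 replicate, 1/2 LD50 day 7 replicates 1 or 2, 1/10 LD50 day 14 replicate 3, or 1/5 LD50 day 14 replicates 2 or 3.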

How the results depend on the processing

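Shares of all genes called are not given for the settings below, so a moved count is not a result about the members alone. With each library's length trend removed, the counts were 2, 2 and 2 on day 3 (at 1/10, 1/5 and 1/2 LD50), 21 and 6 at 1/5 and 1/2 LD50 on day 7, 1 at 1/5 LD50 on day 14, 0 for all soman, 20 between days and 9 for day 14 against 7. With median-ratio scaling they were 26 and 31 at 1/10 and 1/5 LD50 on day 3, 34 at 1/2 LD50 on day 7, 1 at 1/5 LD50 on day 14, 16 for all soman and 22 for day 14 against 7. Without the filter they were 8 and 9 at 1/5 and 1/2 LD50 on day 3, 9 at 1/2 LD50 on day 7, 3 for all soman and 1 for the interaction. In models of the compared groups alone they were 1 and 1 at 1/10 and 1/5 LD50 on day 1, 4 and 43 at 1/10 and 1/2 LD50 on day 3, 0 at 1/10 LD50 on day 7, 3 at 1/5 LD50 on day 14, 2 for the interaction, 0 for 1/5 against 1/10 LD50 and 9 for day 14 against 7. Summed with near-identical copies, an alternative chosen after seeing the data, they were 0 at 1/2 LD50 on day 1 and 8 for all soman. Without the 2 libraries of high mitochondrial share they were 50, 51 and 60 on day 3, 0 and 52 at 1/10 and 1/2 LD50 on day 7, 2, 5 and 1 on day 14, 41 for all soman, 69 between days, 1 for the interaction, 0 for 1/5 against 1/10 LD50 and 60 for day 14 against 7. Without the 7 libraries between others they were 0, 1 and 2 on day 3, 0, 25 and 3 on day 7, 0 for all soman, 24 between days, 0 between doses and 1 for the interaction. Leaving out 1 library at a time gave 2 to 7, 3 to 18 and 2 to 17 on day 3, 6 to 43, 35 to 48 and 2 to 18 on day 7, 0 to 26 for all soman, 34 to 62 between days, 1 to 54 between doses, 1 to 57 for the interaction, 43 to 67 for 1/5 against 1/10 LD50 and 10 to 35 for day 14 against 7. The summed share at 1/2 LD50 on day 14 was 1.11 to 1.13 times saline when 1 library was left out. A pseudocount of 0.1 and summing the rows of a symbol moved no count by over 1.5 times. Replicate numbers did not pair the libraries (39 of 234 same-numbered pairs were correlated above 0.1, median 0.01), and a replicate block moved no count by over 1.5 times, with 53 members at 1/5 LD50 on day 7. Of 709 recomputed values for 41 named changes, 537 stayed past the threshold in the same direction, 169 kept the direction and lost the call, and 3 reversed: Rpl22l1, Rps21 and Rps13 at 1/10 LD50 on day 7 became 0.29, 0.30 and 0.039 without the 2 libraries of high mitochondrial share. The cause of these shifts was not tested. Values are FPKM without read counts, so the depth behind a low value such as that of Rpl29 is unknown.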
